A study of Mus musculus with 12 samples.

Results

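The comparison described here sets CD8+ T cells from MC38 tumours treated with the radiotherapy mode named SRT against those from tumours treated with the mode named CRT. It used the 3 samples labelled SRT and the 3 labelled CRT, 6 of the 12 samples in the study, and all 773 genes that were measured. MC38 is a mouse colon carcinoma line, and the host mice were C57BL/6J animals, the background on which that line grows. Both groups carried the same tumour and received 20 Gy, given once the tumours had reached 40 to 100 mm3. The labels give SRT and CRT as they stand, without spelling them out, and do not say how dose, fractions or field differed between the modes or how long after irradiation the tumours were taken. The other groups were Nontreated, with no radiotherapy, and SRT-like, a further mode, with 3 samples each. Tumours were digested, CD45+ cells were enriched on beads and CD8+ T cells were sorted, and RNA in the lysate was counted with the NanoString nCounter mouse immune exhaustion panel, which reads barcoded probes on single molecules without amplification.

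SRT replicates 1, 2 and 3 are the samples numbered 2, 3 and 8 in the labels, and CRT replicates 1, 2 and 3 are those numbered 4, 5 and 9. Batch, age and sex of the mice are not labelled, nor is it stated if each sample is a mouse of its own. P-values therefore reflect no more than the scatter among these samples, and that scatter may be technical. The total count was 161752 to 271874 molecules in SRT and 160373 to 299512 in CRT. Samples correlated across genes at a Pearson's r of 0.968 to 0.976 within SRT, 0.968 to 0.980 within CRT and 0.962 to 0.980 between the groups, so the ranges overlapped. Values below are the authors' normalized counts on a log2 scale, where a difference of 1 is a doubling. A gene was called above background in a sample where it exceeded the mean plus 2 SD of 26 genes of other tissues or a virus, and 467 of the 773 genes were so in every SRT or every CRT sample. Those 26 genes averaged 3.23, 3.43 and 3.62 in SRT and 3.21, 3.65 and 3.75 in CRT, higher in the shallower samples. The mean over 5 genes of the CD3 and CD8 chains was 11.06, 11.30 and 10.93 in SRT and 11.09, 11.18 and 10.96 in CRT. These levels go with the label of CD8+ T cells but do not measure purity. Genes of other cells are given below.

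CD8+ T cells that enter a tumour receive signals through the T cell receptor, through co-stimulatory and inhibitory receptors, and through cytokines. Irradiated tumours can release type I interferon, which acts on T cells through its receptor IFNAR and turns on a broad set of antiviral genes. Activated T cells enter the cell cycle and make granzymes and perforin. Cells with memory or stem-like features instead keep the transcription factor TCF-1, the survival protein BCL-2 and the homing receptor CCR7, and cells that settle in tissue carry the integrin CD103.

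No gene passed the test between SRT and CRT. By limma, 0 of 773 genes (0%) had an adjusted p under 0.05, and the smallest adjusted p was 0.564, shared by 34 genes. At an unadjusted p under 0.05 there were 51 genes (6.6%), 13 higher in SRT (1.68%) and 38 higher in CRT (4.92%). Limma's voom on the recovered counts also called 0 genes, with 57 at an unadjusted p under 0.05, 28 of them higher in SRT and 29 higher in CRT, and after quantile normalization the split was 28 and 34. With the runs of sample numbers taken as a block, 0 genes passed and 66 were at an unadjusted p under 0.05. The 51 became 25 without SRT replicate 1 and 28 without CRT replicate 2. All 3 SRT samples lay above all 3 CRT samples in 28 genes (3.62%), and all 3 CRT samples lay above all 3 SRT samples in 60 (7.76%). Over the panel 448 of 773 genes were lower in SRT and 325 were higher, so counts of members in 1 direction are to be read against these. All the differences named below share this outcome, with an adjusted p of at least 0.564, and are given as values with their standard error (SE).

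**Figure D1:**
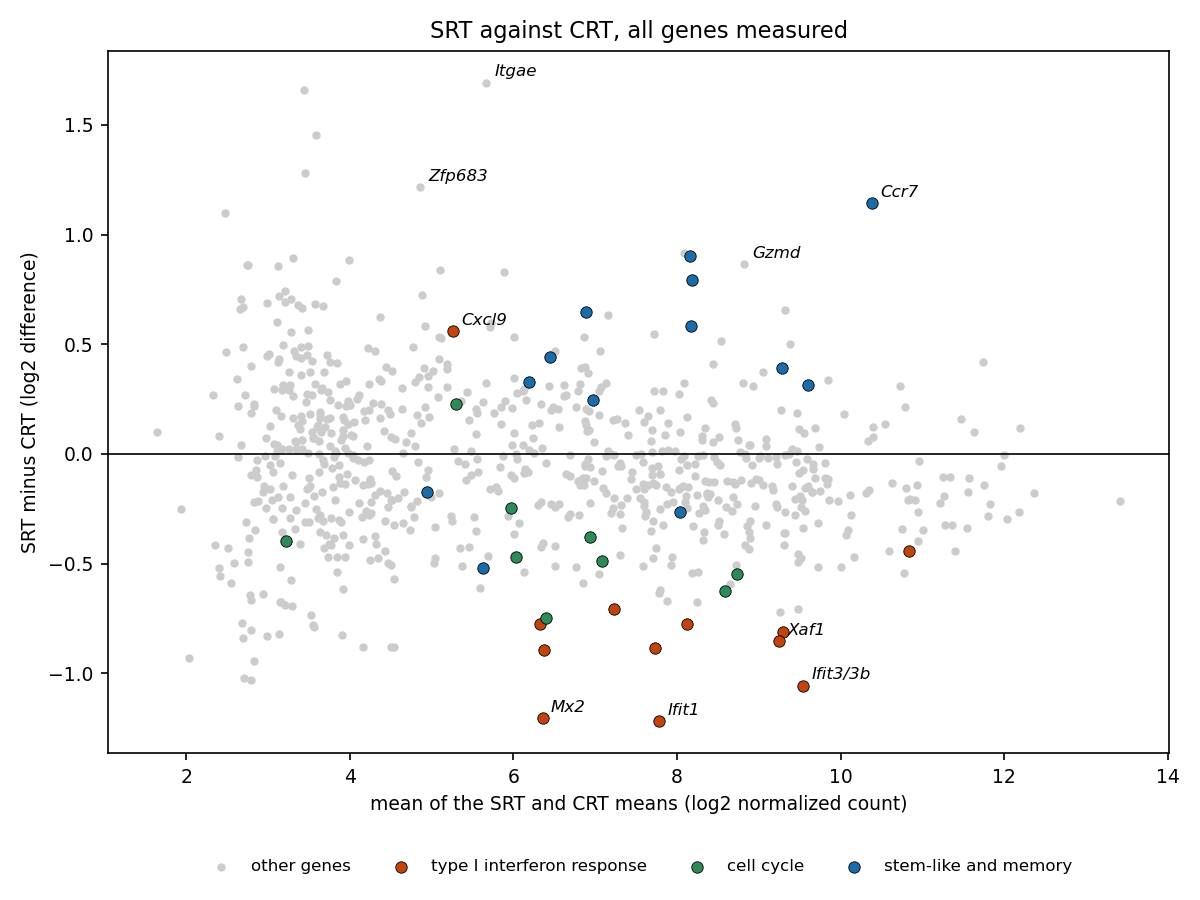
Difference between SRT and CRT (y axis, SRT minus CRT, log2) against the mean of both group means (x axis, log2 normalized count) for all 773 genes, with members of 3 gene lists coloured. Of the 12 interferon genes 11 lie below 0, as do 8 of the 9 cell cycle genes, and 10 of the 13 stem-like and memory genes lie above 0.

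Genes induced by type I interferon were lower in SRT than in CRT. Of 12 measured members of the interferon list, 11 were lower in SRT, 8 at an unadjusted p under 0.05 and 5 without overlap between the groups. Over all genes 448 of 773 were lower in SRT, 4.92% were higher in CRT at that p and 7.76% had all CRT samples above all SRT samples. The median difference was -0.83, against -0.06 over all 773 genes. The chemokine gene Cxcl9 was the exception, at 0.56 ± 0.48 (SE), and was above background in only 2 of the 3 samples of each group. The mean over the 12 genes was 7.24, 7.23 and 7.92 in SRT, 7.99, 8.33 and 8.34 in CRT and 5.96, 6.64 and 6.46 in Nontreated, so the highest SRT sample lay just under the lowest CRT sample and all irradiated samples lay above the controls.

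The regions before the start of 4 of these genes are shown because interferon acts on such genes through a short promoter element, of which the letters GAAANNGAAA were searched on both strands. The sequences are RefSeq's for GRCm38.p6, cover the 160 bases before each gene's start, and run 5′ to 3′ on the gene's own strand, with the matches in capitals (on the opposite strand a match reads as its reverse complement). Ifit1 lies at chr19:34640729-34640888 on the plus strand, Ifit3 at chr19:34583369-34583528 on the plus strand, Rsad2 at chr12:26456453-26456612 on the minus strand and Oas1a at chr5:120907526-120907685 on the minus strand.
Ifit1: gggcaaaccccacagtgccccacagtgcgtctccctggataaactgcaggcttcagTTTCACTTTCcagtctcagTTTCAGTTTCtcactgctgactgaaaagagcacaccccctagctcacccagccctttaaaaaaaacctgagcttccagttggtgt
Ifit3: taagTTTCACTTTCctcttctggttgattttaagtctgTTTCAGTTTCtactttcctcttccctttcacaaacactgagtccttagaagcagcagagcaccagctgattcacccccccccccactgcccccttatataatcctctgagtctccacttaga
Rsad2: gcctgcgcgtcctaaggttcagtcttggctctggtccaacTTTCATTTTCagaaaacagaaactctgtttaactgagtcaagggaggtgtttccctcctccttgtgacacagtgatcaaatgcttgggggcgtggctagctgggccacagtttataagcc
Oas1a: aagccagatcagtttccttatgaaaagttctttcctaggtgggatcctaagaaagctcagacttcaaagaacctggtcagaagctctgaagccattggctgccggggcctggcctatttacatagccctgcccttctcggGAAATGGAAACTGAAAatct
Ifit1 and Ifit3 each hold 2 separate matches, Rsad2 holds 1, and Oas1a holds 2 that overlap. In windows from 250 bases before to 50 after the start, 6 of the 8 interferon list members with a RefSeq promoter held a match (75%), against 35 of 571 panel genes (6.13%) and 1079 of all 27025 genes with a promoter (3.99%). Xaf1 and Cxcl9 held none in that window. A match describes these letters and does not show binding in these cells.

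Among the genes with these elements, Ifit1, which encodes a protein that binds foreign RNA, had log2 values of 6.95, 6.85 and 7.71 in SRT and 8.16, 8.76 and 8.25 in CRT. Every CRT sample was above every SRT sample, and the difference was -1.22 ± 0.42 (SE), a 2.33-fold higher level in CRT with a 95% interval of -2.16 to -0.28 on the log2 scale. Ifit3/3b, whose probe cannot tell the Ifit3 pair apart, had 8.72, 8.63 and 9.68 in SRT and 9.85, 10.38 and 9.97 in CRT. The groups again did not overlap, with SRT replicate 3 close to the lowest CRT sample and a difference of -1.06 ± 0.39. Without SRT replicate 3 these differences were -1.49 and -1.39.

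Xaf1, an interferon-induced gene linked to cell death, was at 8.58, 8.58 and 9.31 in SRT and 9.37, 9.87 and 9.79 in CRT, a difference of -0.85 ± 0.29 without overlap. Bst2, which encodes tetherin, a protein that holds budding viruses on the cell, was at 8.91, 8.79 and 8.97 in SRT and 9.70, 10.01 and 9.42 in CRT. Its SRT samples lay close together and under all CRT samples, and the difference was -0.81 ± 0.31. Oas1a, an activator of RNase L, was at 7.29, 7.72 and 8.18 in SRT and 8.24, 8.56 and 8.71 in CRT, with no overlap and a difference of -0.78 ± 0.33.

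The antiviral GTPase gene Mx2 was at 5.30, 5.31 and 6.66 in SRT and 6.62, 6.82 and 7.44 in CRT, and Rsad2, which encodes viperin, at 5.58, 5.58 and 6.61 against 6.52, 7.05 and 6.89. In both genes SRT replicate 3 lay above the lowest CRT sample while the other SRT samples lay lower, and the differences were -1.20 ± 0.46 and -0.90 ± 0.35. Mx1, Oas2 and Oas3 differed by -0.88 ± 0.45, -0.78 ± 0.39 and -0.71 ± 0.45, with overlap. Bst2, Mx2, Rsad2, Oas1a and the other members past Ifit1, Ifit3/3b and Xaf1 were chosen for description after their values were seen.

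Set beside the controls, both modes were higher than Nontreated for these genes, and as the contrasts share the control samples each is given as its own value. Ifit1 was 2.46 ± 0.42 (SE) above Nontreated in CRT (adjusted p = 0.0151) and 1.25 ± 0.42 in SRT (adjusted p = 0.271), and Rsad2 was 2.63 in CRT (adjusted p = 0.011) and 1.74 in SRT (adjusted p = 0.15). The median of the 12 genes against Nontreated was 2.13 in CRT, 1.28 in SRT and 1.36 in SRT-like. Over the whole panel 24 genes passed in CRT against Nontreated and 0 in SRT against Nontreated, and the difference between the modes is the test given above, which these genes did not pass. In these sorted bulk samples a change in the share of cells that express a gene cannot be told apart from a change in RNA per cell.

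**Figure D2:**
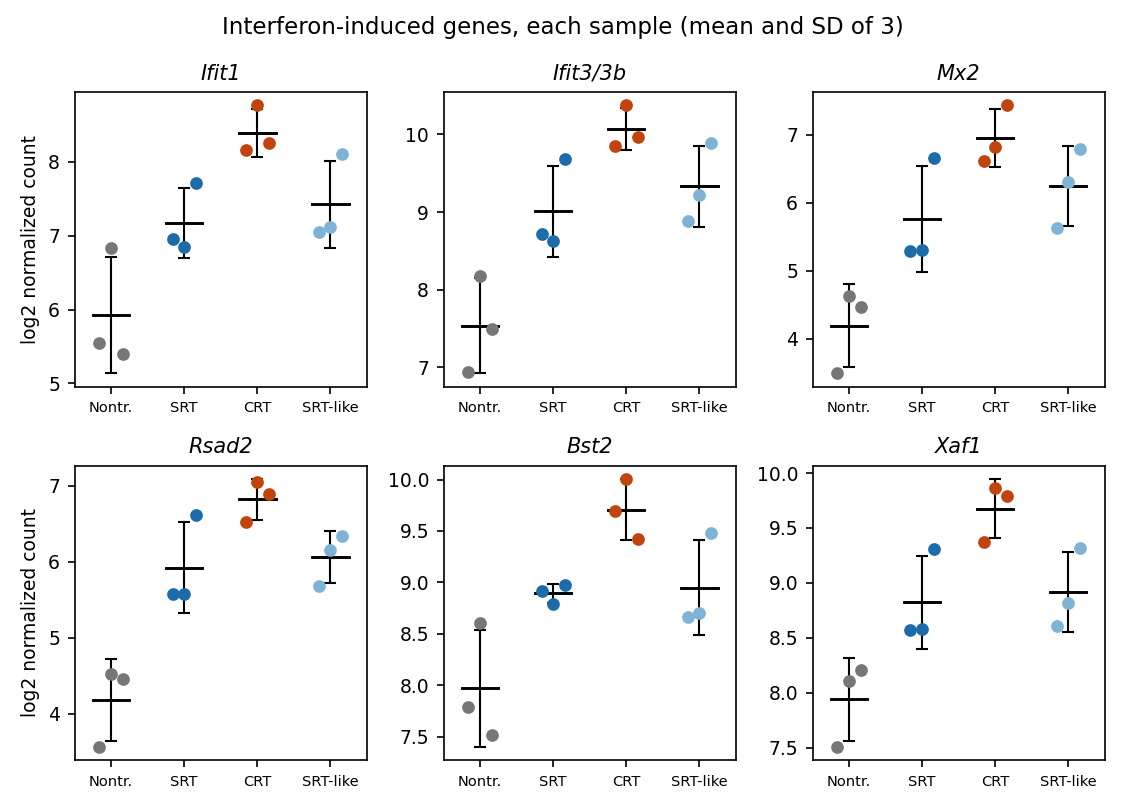
Log2 normalized counts of 6 interferon-induced genes in each sample (points) of Nontreated (Nontr.), SRT, CRT and SRT-like, with the mean (long bar) and SD of 3 samples. CRT has the highest group mean in all 6, and SRT replicate 3 is the highest SRT point in each.

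The interferon difference was present in both runs of sample numbers but differed in size. In Samples 2 to 5, with 2 samples of each mode, the median difference was -1.02 and 11 of 12 genes were lower in SRT, and between Samples 8 and 9, with 1 of each, it was -0.44 and 12 of 12 were lower. Across the 19 alternatives in which list medians were taken, those with each sample left out included, the median stayed between -1.11 and -0.71. List medians were not taken with voom, sample weights, a trended robust prior or only the 6 samples. Outside the list, 3 single genes linked to interferon are given that were picked because they were lower in SRT, and they do not speak for such genes as a group. Rnf213 was at 8.80, 8.92 and 9.67 in SRT and 9.66, 9.88 and 9.96 in CRT, with SRT replicate 3 a little above the lowest CRT sample (-0.71 ± 0.27). Sp100, a nuclear body protein, was 0.44 ± 0.20 lower and Tbk1, a kinase upstream of interferon genes, 0.47 ± 0.20 lower in SRT. Pml, which encodes the organising protein of nuclear bodies and was named by the rule on the smallest p, was at 8.69, 8.89 and 9.12 in SRT and 9.49, 9.66 and 9.71 in CRT, and this difference of -0.72 ± 0.25 showed no overlap.

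Most genes of the cell cycle list were also lower in SRT. Of 9 measured members 8 were lower (448 of 773 over all genes), 2 at an unadjusted p under 0.05 (4.92% over all genes) and 3 without overlap (7.76%), with a median difference of -0.47. Mcm5, a subunit of the replicative helicase, was at 8.44, 8.26 and 8.12 in SRT and 8.89, 8.90 and 8.89 in CRT. The CRT samples were nearly equal and above every SRT sample, by 0.62 ± 0.22 on average. Its partner Mcm7 was at 8.58, 8.62 and 8.18 in SRT and 9.13, 9.15 and 8.75 in CRT, again without overlap (-0.55 ± 0.26). E2f2, a transcription factor of the G1 to S transition, was at 5.83, 6.06 and 6.18 in SRT and 6.31, 6.92 and 7.08 in CRT, without overlap (-0.75 ± 0.26).

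Ccnb1, a mitotic cyclin, Cdc20, an activator of the anaphase-promoting complex, and the phosphatase gene Cdc25a differed by -0.49 ± 0.35, -0.47 ± 0.36 and -0.38 ± 0.21, each with overlap, and E2f5, at 0.23 ± 0.20, was the member that was higher in SRT. Chek1, the checkpoint kinase of replication stress and a member of the p53 and DNA damage list, was at 5.33, 5.50 and 5.56 in SRT and 5.90, 6.01 and 5.87 in CRT, without overlap (-0.46 ± 0.17). The mean over the 9 cell cycle genes was 6.34, 6.22 and 6.25 in SRT and 6.62, 6.80 and 6.61 in CRT, and 5.72, 6.24 and 6.06 in Nontreated. Against Nontreated the median of these genes was 0.61 in CRT and 0.07 in SRT. Within Samples 2 to 5 the median between the modes was -0.55 and between Samples 8 and 9 it was -0.57. The other settings in which list medians were taken gave -0.61 to -0.41.

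Of the genes with the smallest unadjusted p, 4 more were lower in SRT without overlap. Cxcr3, the receptor for interferon-induced chemokines that guides T cells into tissue, was at 7.82, 7.66 and 8.23 in SRT and 8.60, 8.78 and 8.36 in CRT (-0.67 ± 0.22), and against Nontreated it was 1.23 ± 0.22 higher in CRT (adjusted p = 0.0162) and 0.56 ± 0.22 in SRT (adjusted p = 0.394). Nfe2l2, which encodes the oxidative stress factor NRF2, was at 6.33, 6.62 and 6.72 in SRT and 7.27, 7.23 and 6.93 in CRT (-0.59 ± 0.18). In both genes every CRT sample lay above every SRT sample. Il10ra, a chain of the IL-10 receptor, was at 8.46, 8.43 and 8.51 in SRT and 8.82, 9.21 and 8.90 in CRT (-0.51 ± 0.16), with the SRT samples within a narrow band. Snw1, a splicing and transcription cofactor, differed by -0.52 ± 0.18.

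**Figure D3:**
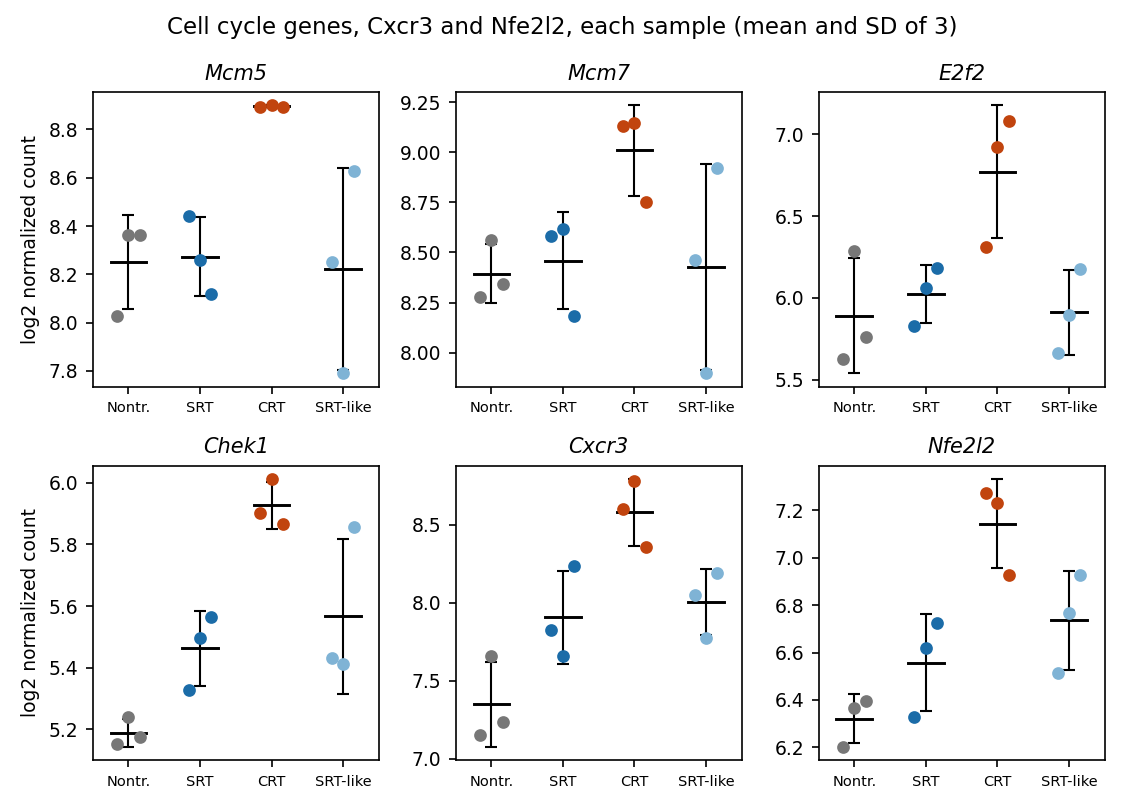
Log2 normalized counts of 4 genes of cell division and its checkpoint, and of Cxcr3 and Nfe2l2, in each sample of the 4 groups, with the mean and SD of 3 samples. In each of the 6 genes the CRT points all lie above the SRT points.

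Single members of other lists were lower in SRT without overlap, while their lists differed in both directions. Casp8, an initiator of cell death, was at 9.15, 9.19 and 9.52 in SRT and 9.53, 9.80 and 9.95 in CRT, and Cd28, the main co-stimulatory receptor, at 9.57, 10.12 and 10.09 against 10.34, 10.48 and 10.37. The groups did not overlap, with differences of -0.48 ± 0.17 and -0.47 ± 0.19. Vsir, which encodes the inhibitory receptor VISTA, was at 9.22, 9.15 and 9.38 in SRT and 9.53, 9.66 and 9.93 in CRT (-0.45 ± 0.17). Entpd1, which encodes CD39, was at 7.21, 7.63 and 7.62 in SRT and 7.68, 8.06 and 8.58 in CRT (-0.62 ± 0.24), and Cd5, a damper of T cell receptor signals, differed by -0.59 ± 0.23. Cd86, a ligand of CD28 and CTLA-4 that antigen-presenting cells carry, was at 7.23, 7.61 and 7.58 in SRT and 7.91, 8.08 and 7.85 in CRT (-0.48 ± 0.17). Cd80, on the same lists as Cd86, went the other way (0.55 ± 0.38). It was at 7.63, 8.14 and 8.22 in SRT and 7.69, 7.42 and 7.24 in CRT, with overlap. Of the 8 dendritic cell genes 4 were higher in SRT, against 325 of 773 over all genes. Cd68, a lysosomal protein abundant in macrophages, was at 5.93, 5.69 and 5.98 in SRT and 6.34, 6.42 and 6.45 in CRT (-0.54 ± 0.18).

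Ccr7, the receptor that guides T cells to lymph nodes, had the smallest unadjusted p of the panel and was higher in SRT. It was at 10.94, 10.87 and 11.07 in SRT and 10.11, 10.04 and 9.30 in CRT, and at 11.33, 10.64 and 10.71 in Nontreated. All SRT samples lay above all CRT samples and within the range of the controls, while the CRT samples lay below the controls. The difference was 1.15 ± 0.28 (SE), a 2.21-fold higher level in SRT with a 95% interval of 0.52 to 1.77 log2 units, and it was 0.83 in Samples 2 to 5 and 1.77 between Samples 8 and 9. Against Nontreated Ccr7 was -1.08 ± 0.28 in CRT (adjusted p = 0.0772) and 0.07 ± 0.28 in SRT (adjusted p = 0.939).

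Other stem-like and memory genes were higher in SRT as well, in large part in SRT replicate 3. Of the 13 measured, 10 were higher in SRT, against 325 of 773 over all genes. At an unadjusted p under 0.05, 1 was higher (1.68% over all genes) and 1, Bcl6, was lower (4.92%). Ccr7 and Bcl2 were the 2 with all SRT samples above all CRT samples (3.62% over all genes). The median difference was 0.39. Without SRT replicate 3 that median was 0.16, and it was 0.11 in Samples 2 to 5 and 0.90 between Samples 8 and 9. Bcl2, a survival gene, was at 8.10, 8.12 and 9.62 in SRT and 7.26, 7.94 and 7.94 in CRT (0.90 ± 0.46), and Tcf7, which encodes TCF-1, at 8.22, 7.95 and 9.22 against 8.35, 7.59 and 7.70 (0.58 ± 0.33). SRT replicate 3 was the highest sample in both genes, and without it the differences were 0.40 and 0.21. Members that were lower in SRT were Bcl6 (-0.52 ± 0.22), Foxo1 (-0.27 ± 0.18) and Il6st (-0.17).

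**Figure D4:**
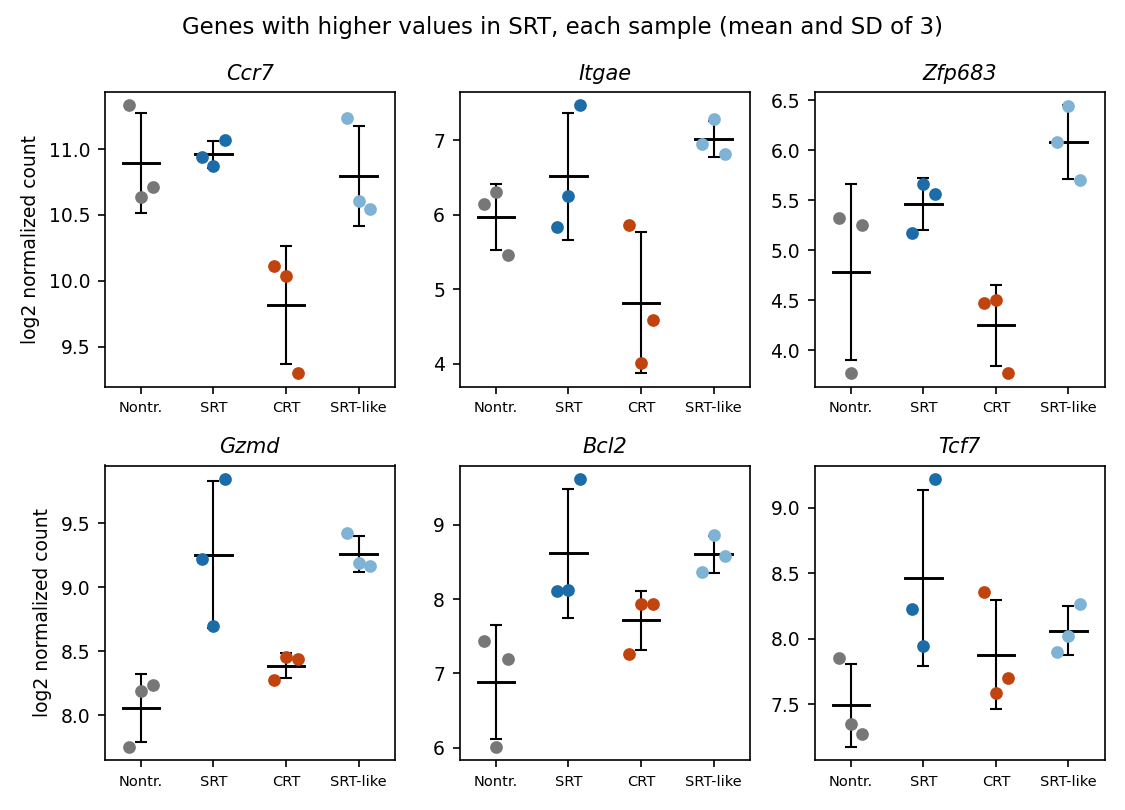
Log2 normalized counts of 6 genes with higher means in SRT in each sample of the 4 groups, with the mean and SD of 3 samples. Ccr7, Zfp683, Gzmd and Bcl2 show no overlap between SRT and CRT, and Itgae and Tcf7 overlap. For Itgae and for Zfp683 only 1 CRT sample was above background.

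Among residency genes, Itgae, which encodes CD103, the integrin that binds E-cadherin, was at 5.83, 6.24 and 7.46 in SRT and 5.86, 4.01 and 4.59 in CRT. SRT replicate 1 lay just below CRT replicate 1, so the groups overlapped, and only 1 of the 3 CRT samples was above background. The difference was 1.69 ± 0.50, with the CRT level near background. Zfp683, which encodes the residency factor Hobit, was at 5.17, 5.66 and 5.56 in SRT and 4.47, 4.50 and 3.78 in CRT. The groups did not overlap (1.22 ± 0.40), and again only 1 CRT sample was above background. Itgae and Zfp683 met the background filter through SRT alone, the group where they were higher. Cd69, an early activation and retention marker, went the other way, with 7.17, 7.36 and 8.10 in SRT and 7.99, 8.28 and 8.36 in CRT (-0.67 ± 0.35). The 10 measured residency and adhesion genes had a median of 0.38, with 6 higher in SRT, 0.17 without CRT replicate 3 and -0.06 in Samples 2 to 5.

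Granzyme genes differed in both directions. Gzmd was at 9.22, 8.69 and 9.85 in SRT and 8.28, 8.45 and 8.44 in CRT, and Gzme at 7.33, 6.65 and 7.42 against 6.55, 6.62 and 6.64. Both showed no overlap, with the lowest SRT sample of Gzme only a little above the highest CRT sample, and differences of 0.87 ± 0.27 and 0.53 ± 0.26. Gzmf, at 8.76, 9.29 and 10.89 in SRT and 9.06, 8.98 and 8.93 in CRT, was high in SRT replicate 3 (0.66 ± 0.43). These mouse granzymes are close in sequence, so their probes may take up each other's RNA. Gzmb, the main killer granzyme, was at 10.47, 10.27 and 10.78 in SRT and 10.63, 11.04 and 11.48 in CRT (-0.54 ± 0.33), with overlap. Prf1, which encodes perforin, differed by -0.21 ± 0.23. Over the effector list 8 of 21 genes were higher in SRT (325 of 773 over all genes), with a median of -0.21, and 13 were lower. Differences ran from -0.54 to 1.66. At an unadjusted p under 0.05 by limma, 2 were higher in SRT (1.68% over all genes) and 0 higher in CRT (4.92%). All SRT samples lay above all CRT samples in 3 (3.62%), and the reverse held in 1 (7.76%).

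Further genes that were higher in SRT without overlap were Ahr, the receptor for aromatic ligands, at 5.89, 6.12 and 6.05 in SRT and 5.60, 5.50 and 5.17 in CRT (0.60 ± 0.17), and Tnfrsf14, which encodes HVEM, at 7.13, 7.24 and 7.50 against 6.88, 6.67 and 6.93 (0.47 ± 0.16). Il1r2, the decoy receptor for IL-1, was at 8.89, 8.07 and 8.67 in SRT and 8.05, 7.26 and 7.56 in CRT (0.92 ± 0.32), and its lowest SRT sample lay just above the highest CRT sample. Mif, a cytokine that acts on macrophages, differed by 0.50 ± 0.19. Ptpn6, which encodes the phosphatase SHP-1, was at 8.51, 8.95 and 8.48 in SRT and 8.27, 8.24 and 8.19 in CRT, and at 8.91, 9.02 and 9.23 in Nontreated. Its difference was 0.41 ± 0.19, and CRT was -0.82 ± 0.19 from Nontreated (adjusted p = 0.0447) and SRT -0.41 ± 0.19 (adjusted p = 0.451). Echs1, a metabolic gene of fatty acid oxidation, differed by 0.31 ± 0.15, without overlap.

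The inhibitory receptors that mark exhausted cells differed in both directions. Pdcd1, which encodes PD-1, was at 11.30, 11.94 and 11.81 in SRT and 11.41, 11.37 and 11.96 in CRT, a difference of 0.10 ± 0.25 with a 95% interval of -0.45 to 0.65. Its sign turned without SRT replicate 2. Havcr2, which encodes TIM-3, was at 9.03, 9.38 and 8.88 in SRT and 9.37, 9.46 and 9.71 in CRT (-0.41 ± 0.19), with overlap at a single SRT sample. Lag3 (-0.21 ± 0.27), Ctla4 (-0.20 ± 0.19), Tigit (0.08 ± 0.21) and Klrg1 (-0.35 ± 0.24) all overlapped. Over 16 inhibitory receptors the median was 0.04, with 9 higher in SRT. Tox, a factor of the exhausted state, was at 7.45, 7.52 and 6.90 in SRT and 7.00, 6.86 and 7.04 in CRT (0.32 ± 0.19), and Slamf6 differed by 0.33 ± 0.21. The cytokine genes Ifng and Tnf differed by -0.22 ± 0.35 and -0.46 ± 0.36, the activation receptor gene Tnfrsf9 by -0.01 ± 0.20 and Cd8a by 0.31 ± 0.16. The sign of Ifng turned under quantile normalization, that of Tnfrsf9 under several scalings, and that of Lag3, Prf1 and Tigit with 1 sample left out.

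**Figure D5:**
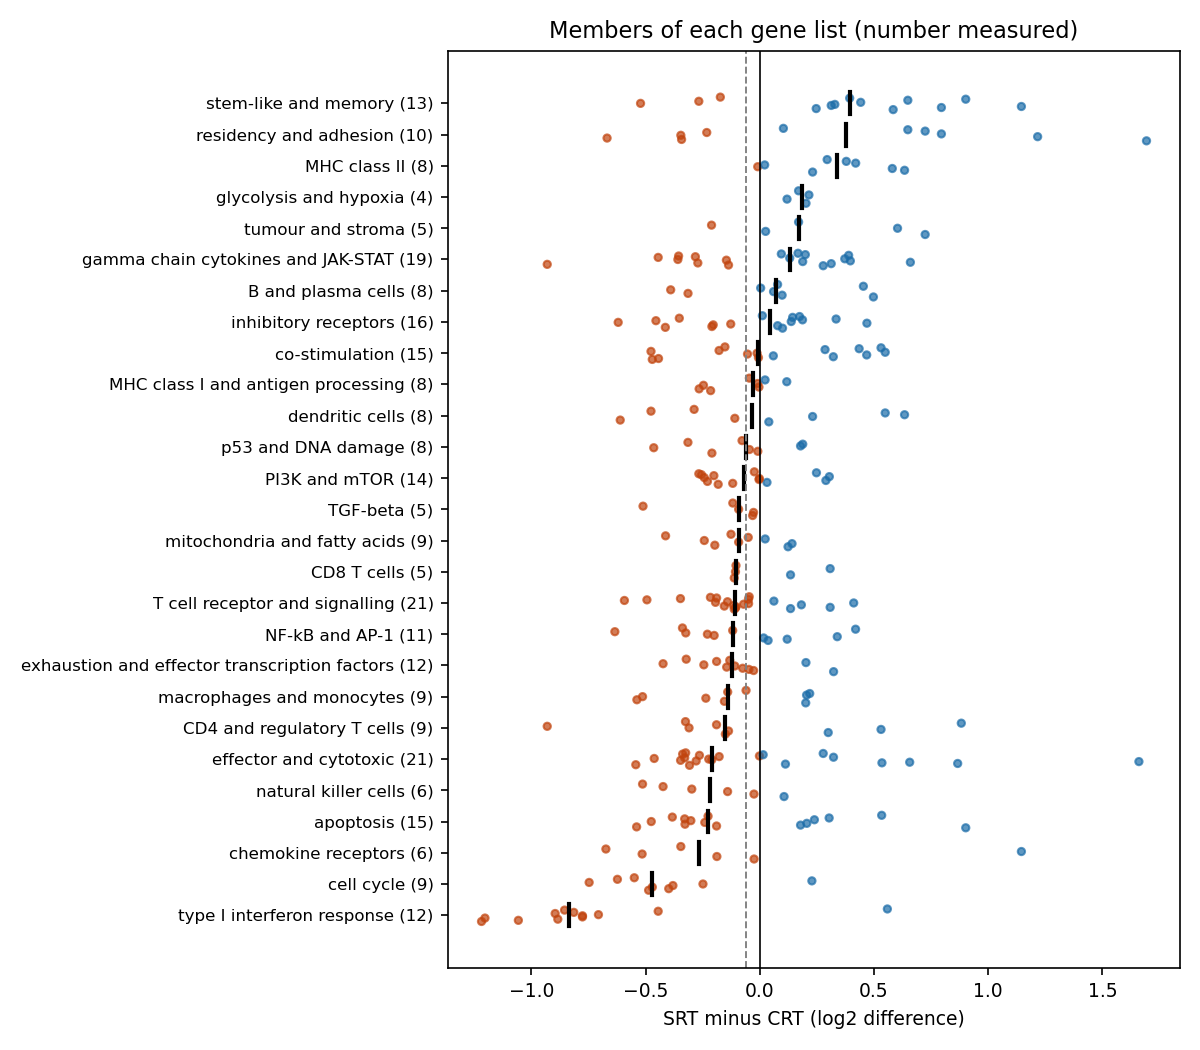
Difference between SRT and CRT (x axis, SRT minus CRT, log2) for every measured member of each gene list (points, blue above 0 and orange below), with the list's median (black bar), the median of all genes (dashed line, -0.06) and the number of members measured in brackets. The interferon and cell cycle lists have the lowest medians, -0.83 and -0.47, and the stem-like and memory list the highest, 0.39.

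The medians of most other lists lay between -0.27 and 0.19, against -0.06 over all genes, of which 325 of 773 were higher in SRT. These were -0.11 for T cell receptor signalling (5 of 21 higher in SRT), -0.12 for NF-kB and AP-1 (5 of 11), -0.12 for exhaustion and effector transcription factors (2 of 12), -0.01 for co-stimulation (7 of 15), -0.07 for PI3K and mTOR (4 of 14) and 0.13 for gamma chain cytokines and JAK-STAT (11 of 19). MHC class I and antigen processing genes were at -0.03 (2 of 8), apoptosis genes at -0.23 (6 of 15), p53 and DNA damage genes at -0.06 (2 of 8), TGF-beta genes at -0.09 (0 of 5) and chemokine receptors at -0.27 (1 of 6, Ccr7). Glycolysis and hypoxia genes were at 0.19 (4 of 4), but at -0.06 between Samples 8 and 9, where 3 of 4 were lower in SRT. Mitochondrial and fatty acid genes were at -0.09 (3 of 9). For a gene that did not pass, the intervals bound the difference, and they lay within 1 log2 unit either way for 411 of 773 genes (53.2%) and for 367 of the 467 genes above background (78.6%). The median half-width of the 95% interval was 0.66 over all genes and 0.49 over those above background.

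Genes on the lists of other cells that a sort could carry over ranged from below background to high. In 0 of the 6 samples did the helper T cell gene Cd4, the B cell gene Ms4a1, or Cd14 and Csf1r of monocytes exceed background. Of the macrophage list 3 of 9 measured genes were above background in every sample of a group, of the B cell list 3 of 8, of the CD4 and regulatory T cell list 4 of 9, of the natural killer list 4 of 6, of the tumour and stroma list 3 of 5 and of the dendritic cell list 8 of 8. Over all genes this was 467 of 773. Levels were high for Klrc1 of the natural killer list, which CD8+ T cells can also express, at 11.78, 12.03 and 11.85 in SRT and 12.07, 12.33 and 12.15 in CRT. Ighm, an immunoglobulin gene, was at 7.66, 7.52 and 7.95 in SRT and 7.78, 7.33 and 7.84 in CRT, with overlapping groups. The median differences of these 6 lists, in the same order, were -0.14, 0.07, -0.15, -0.22, 0.17 and -0.03. Over their members above background they were -0.51, 0.004, 0.08, -0.36, 0.17 and -0.03. Of those members, 0 of 3, 2 of 3, 2 of 4, 0 of 4, 3 of 3 and 4 of 8 were higher in SRT. Over all genes above background it was 166 of 467. Of the genes named by the rule, Cd40lg, Foxp3, Cdh1, Cd22 and H2-Ab1 met that filter through SRT alone, where each was higher. Cd79b met it through CRT alone, where it was higher. The filter itself therefore shaped these counts and the medians over members above background. The mean over all 9 macrophage genes was 4.57, 4.59 and 4.42 in SRT and 4.33, 4.94 and 4.65 in CRT. The range of CRT took in that of SRT, but only 3 of these genes were above background. Cd68, Cd80 and Cd86 above are members of these lists, and the part of such cells in their differences was not tested.

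MHC class II genes, which antigen-presenting cells express, had a wide spread in CRT. The mean over 8 genes was 5.64, 6.00 and 5.46 in SRT and 6.15, 5.63 and 4.36 in CRT, with CRT replicate 3 the lowest of the 6. Of the 8 genes 7 were higher in SRT, with a median of 0.34, which was -0.20 without CRT replicate 3. H2-Ab1, a class II chain, was at 7.18, 8.40 and 6.85 in SRT and 8.57, 7.36 and 4.59 in CRT, where the last sample was not above background (0.63 ± 0.87). The mean over the dendritic cell list, which shares H2-Aa and H2-Ab1 with these genes, was 7.03, 7.42 and 7.04 in SRT and 7.56, 7.40 and 6.54 in CRT. In that same CRT sample Ccr7 was lowest while the interferon genes stood as high as in CRT replicate 2, and the part of antigen-presenting cells in the Ccr7 difference was not tested. Without CRT replicate 3 the Ccr7 difference was 0.89.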

How the data were processed

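The data were log2 values of 773 genes in 12 samples of sorted CD8+ T cells, 6 of which form the comparison. Per the labels, the authors normalized the NanoString counts in ROSALIND, and the deposited table holds the resulting log2 values, from -0.68 to 13.92. Neither the software version, the background handling nor the reference genes could be read from the labels. Within a sample, 100% of the values were whole multiples of 1 step (tolerance 0.02 counts), so molecule counts, and thus depth, were recovered. Shallower samples have a higher scaled background, which compresses differences of low genes.

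Differences were tested with limma 3.58.1 under R 4.3.3 (lmFit, eBayes, 2-sided) in a model of 4 group means fitted to the 12 samples, with Benjamini-Hochberg adjustment over 773 genes and a threshold of 0.05. It was tested on simulated data first. An exact permutation test of 3 against 3 samples cannot go below p = 0.1 and was not used. Figures were drawn with matplotlib 3.10.9. Of the gene names 756 matched a RefSeq symbol.

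Genes named were the 12 higher in SRT and the 12 higher in CRT with the smallest unadjusted p among genes above background in every sample of either group, 20 genes of T cell function, and up to 3 members of each list. Others were chosen after their values were seen. The members, lists and rules were chosen with earlier results of these data known. The 26 background genes were picked by tissue from the names on the panel. Alternatives were other normalizations (median, quantile, Cd3 and Cd8 genes), only the 6 samples, a filter and a floor on low values, a trended robust prior, sample weights, voom on the counts, runs of sample numbers (Samples 1 to 5, 6 to 9 and 10 to 12) as a block, and each sample left out. Some measured genes are not reported here.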

Additional observations from a re-analysis of the deposited data

How the results depend on the processing

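No alternative gave a gene with an adjusted p under 0.05, and the smallest was 0.12, with a trended robust prior. The number of genes at an unadjusted p under 0.05 (51) was 25 when centred on the Cd3 and Cd8 genes and 83 with sample weights, and ranged from 25 to 70 with 1 sample left out. The genes without overlap (88, both directions together) ranged from 124 to 204 with 1 sample left out and were 319 without Samples 8 and 9, since fewer samples overlap less often. The interferon median was -0.44 within Samples 8 and 9. Voom moved the median of all genes from -0.06 to 0.06. Of the 98 genes named by the rule, 80 had no value of the opposite sign in any of the 23 refits and 18 had. The sign turned for Tnfrsf9 with median centring (0.045), quantile normalization (0.14), sample weights (0.051), voom (0.12) and without Samples 8 and 9 (0.11), and for Ifng (0.029) and Cd22 (-0.013) with quantile normalization. It turned for Cd22 with centring on Cd3 and Cd8 (-0.020), Pecam1 with sample weights (-0.20), and Cd3d (0.013), Smad2 (0.073) and Cd33 (0.077) with voom. Without Samples 8 and 9 it turned for H2-Eb1 (-0.049), Bax (-0.16), H2-Ab1 (-0.18), Smad2 (0.077) and Pecam1 (-0.40). With 1 sample left out the ranges that crossed 0 were -0.16 to 1.17 for H2-Eb1, -0.39 to 0.013 for Prf1, -0.051 to 0.38 for Slc2a3, -0.045 to 0.30 for Bax, -0.37 to 0.10 for Lag3, -0.49 to 1.5 for H2-Ab1, -0.23 to 0.0038 for Cd3d, -0.52 to 0.11 for Ifng, -0.27 to 0.040 for Smad4, -0.068 to 0.31 for Vegfa, -0.029 to 0.29 for Pdcd1, -0.12 to 0.25 for Tigit, -0.10 to 0.16 for Ighm, -0.21 to 0.082 for Cd33, -0.26 to 0.17 for Pecam1, -0.13 to 0.17 for Tnfrsf9 and -0.20 to 0.33 for Cd22. The cause of these turns was not tested. No paired analysis was possible because no samples of different groups share a number in the labels.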

Other observations

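The following 4 genes outside the values above were picked because their groups did not overlap, and they do not speak for a gene group. Ttk, a kinase of the spindle checkpoint, was at 4.39, 4.98 and 5.05 in SRT and 5.14, 5.33 and 5.36 in CRT (-0.47 ± 0.20 SE), and Smc3, a cohesin subunit, at 8.42, 8.46 and 8.32 against 8.82, 8.93 and 8.54 (-0.37 ± 0.16). Every CRT sample lay above every SRT sample in both genes. Atf4, a transcription factor of the amino acid and stress response, was at 9.66, 9.92 and 9.65 in SRT and 10.36, 10.21 and 10.22 in CRT, also without overlap (-0.52 ± 0.19). None of the 3 passed the test over all genes. Cd244a, which encodes 2B4, a receptor of the SLAM family, was higher in SRT without overlap, at 6.65, 6.78 and 6.81 against 6.10, 6.52 and 6.20 (0.47 ± 0.25).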
